A study of Mus musculus with 19 samples.

Results

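The 9 genes described here encode enzymes that carry squalene to cholesterol: Sqle, Lss, Cyp51, Tm7sf2, Msmo1, Nsdhl, Hsd17b7, Sc5d and Dhcr7. They were chosen by symbol, as enzymes of the late pathway, with no measured value in the rule, from the 24054 genes of a liver RNA-seq table, and all 9 were among the 11580 genes that averaged 1 or more and so entered the tests. Both groups of mice carried Raly flox/flox alleles on a C57BL/6 background and ate chow; the study used males unless otherwise specified, and no age is given for these livers. One group received AAV8.TBG.Cre, which deletes the floxed part of Raly (L-RalyKO, 3 mice), and the other received AAV8.TBG.GFP (control, 3 mice, labelled wild type although they carry the same floxed alleles), 4 weeks before collection. The TBG promoter drives expression in hepatocytes, so Raly is left in the other cells of the liver. The comparison asks how the loss of RALY, an RNA-binding protein of the hnRNP family, bears on sterol gene expression, and the values below also show how the 9 genes moved together from mouse to mouse.

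Cholesterol is made from acetyl-CoA through mevalonate to squalene, a straight chain that is oxidised and folded into the first sterol, lanosterol, and then trimmed and reduced to cholesterol on the membranes of the endoplasmic reticulum. The liver is a major site of this synthesis. Most genes of the pathway are known targets of SREBP2, a membrane-bound transcription factor that is released to the nucleus when cell sterols are low and that acts on promoters together with NF-Y, a factor that binds the CCAAT box, and Sp1, which binds the GC box.

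RefSeq promoter windows on GRCm38.p6, each of 300 bases around an annotated start, were available for 8 of the 9 genes in 10 windows. On either strand, the letters CCAAT were found in 8 of 10 windows and in at least 1 window of 8 of 8 genes, against 37.4% of all 32851 windows and 43.1% of the 8805 tested genes with a window. The letters GGGCGG of the GC box also occurred in 8 of 8 genes, against 35.7% of all windows and 68.15% of tested genes with one. The E-box CACGTG was found in 3 genes, Hsd17b7, Sc5d and Dhcr7, against 7.15% of all windows and 12.1% of tested genes with one. TCACNCCA, a short form of the sterol regulatory element, was found in Msmo1 alone, against 4.36% of all windows and 4.61% of tested genes. A TCACNCCA match can overlap a CCAAT match, and a match is a description of letters, not a site. The sequences below, each the 200 bases before the start written 5′ to 3′ along the gene, are those of the 3 C4-demethylation genes and Sc5d. The former hold several CCAAT matches each in the window, and Sc5d, like Lss, Cyp51 and Tm7sf2, holds 1. Dhcr7, not printed, holds 2 in its window 3. The Nsdhl matches that begin 8 and 34 bases past the start lie outside its printed stretch. Capitals mark CCAAT or its reverse complement ATTGG and, in Msmo1, TCACTCCA.
Msmo1, chr8:64733579-64733778, minus strand: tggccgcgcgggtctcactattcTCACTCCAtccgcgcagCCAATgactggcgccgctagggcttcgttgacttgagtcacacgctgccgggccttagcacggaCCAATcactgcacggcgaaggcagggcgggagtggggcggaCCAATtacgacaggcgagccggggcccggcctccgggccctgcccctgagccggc
Nsdhl, chrX:72918321-72918520, plus strand: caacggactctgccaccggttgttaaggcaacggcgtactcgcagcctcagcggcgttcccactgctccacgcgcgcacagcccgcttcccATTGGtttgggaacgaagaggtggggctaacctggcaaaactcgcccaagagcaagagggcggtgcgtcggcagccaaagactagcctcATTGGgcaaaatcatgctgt
Hsd17b7, chr1:169969206-169969405, minus strand: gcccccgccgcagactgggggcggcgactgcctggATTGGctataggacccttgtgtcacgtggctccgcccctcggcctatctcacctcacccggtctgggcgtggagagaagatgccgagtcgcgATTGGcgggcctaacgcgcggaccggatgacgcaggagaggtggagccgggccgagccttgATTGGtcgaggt
Sc5d, chr9:42264301-42264500, minus strand: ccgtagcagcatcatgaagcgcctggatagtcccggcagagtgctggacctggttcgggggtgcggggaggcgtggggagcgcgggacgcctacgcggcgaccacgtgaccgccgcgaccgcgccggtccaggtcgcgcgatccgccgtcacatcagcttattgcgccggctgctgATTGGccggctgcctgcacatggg

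**Figure D1:**
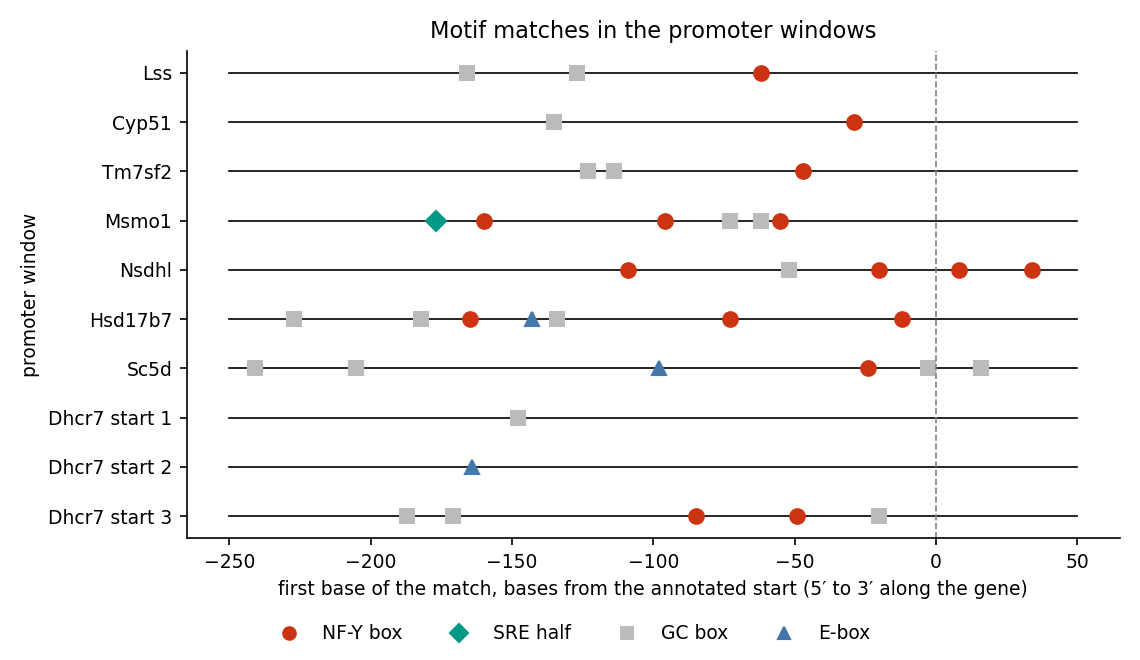
Position of 4 motifs in the RefSeq promoter windows of 8 genes, with the horizontal axis in bases from the annotated start and 1 row per window; each symbol is the first base of a match on either strand. An NF-Y box lies in 8 of the 10 windows, the SRE match lies in Msmo1 alone, and the first and second Dhcr7 windows hold no NF-Y box.

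The libraries held 28302983 to 38052705 reads over genes, and control 2 was the shallowest. Each value is a normalised read count, in CPM, the reads of a gene as a share of all reads of its library after correction for library composition. Raly, the targeted gene, was at 6.34, 6.61 and 7.39 in L-RalyKO mice 1 to 3 and at 50.1, 48.6 and 46.8 in control mice 1 to 3 (log2 fold change -2.67, SE 0.069; limma adjusted p = 6.92e-07). Summed markers of hepatocytes ran from 90395 to 91588 in L-RalyKO and from 80616 to 89631 in control livers, and those of Kupffer cells, the macrophages of the liver, from 161 to 209 and from 156 to 234. Of all tested genes, 6.55% passed at an adjusted p under 0.05 (limma). None of the 7 Kupffer, 7 stellate, 6 endothelial, 3 tested cholangiocyte or 6 periportal hepatocyte markers did. The threshold was passed by 1 of 6 hepatocyte markers (Hnf4a, higher) and 1 of 6 pericentral hepatocyte markers (Lgr5, lower). In bulk liver, fewer cells of a type and less RNA per cell cannot be told apart. The labels number the replicates without naming animals, so the p-values measure the spread between these samples. The 9 genes had from 181 reads (Sqle, control 1) to 9349 reads (Sc5d, control 1) in a library, and for Sqle at 181 reads the counting error alone is 7.43%.

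None of the 9 genes passed the test between the groups at an adjusted p under 0.05 (limma), where 6.55% of all tested genes did, and adjusted p-values ran from 0.199 to 0.798. edgeR's quasi-likelihood test and DESeq2 on the recovered reads also called 0 of 9. At an unadjusted p under 0.05, 1 of the 9 passed, Tm7sf2, against 22.7% of all tested genes, or 1 of 9 in the higher direction against 11.8% and 0 of 9 in the lower direction against 10.9%. With edgeR or with total-count scaling the 1 gene past this threshold was instead Sc5d, lower, and with limma without an intensity trend there was none. In no member were the 3 L-RalyKO mice clear of the 3 controls, which they were for 28.1% of all tested genes. The log2 fold change, taken on log2(value + 1), was positive for 8 of 9 genes (51.2% of all tested genes) and negative for Sc5d. Without control 3, it was positive for 6 of 9. The median log2 fold change was 0.11 over the 9 genes and 0.00 over all tested genes. For the 9 genes it was 0.03 without L-RalyKO 1, 0.18 without L-RalyKO 3, 0.29 without control 2 and 0.035 without control 3. Over all 6 mice, the median absolute log2 fold change was 0.17 for the 9 genes and 0.095 for all tested genes.

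**Figure D2:**
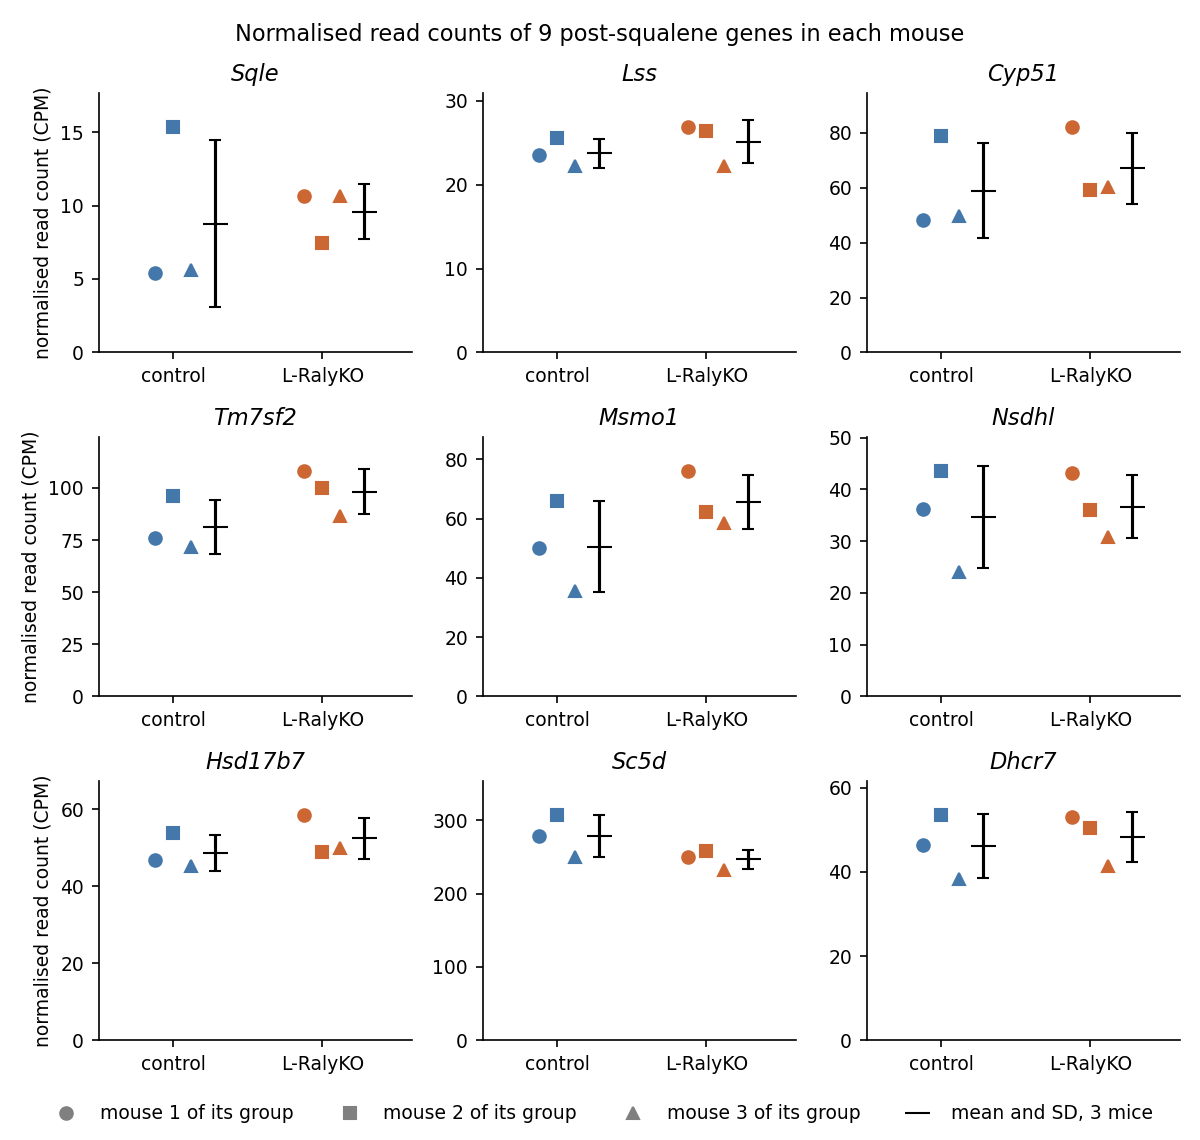
Normalised read count (CPM, linear axis from 0) of each of the 9 genes in 3 control and 3 L-RalyKO mice; each symbol is a mouse, and the bar is the group mean with its SD. The 2 groups overlap in all 9 panels, and the square, control 2, is the highest control in every panel.

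The pathway opens with Sqle, squalene epoxidase, which adds the first oxygen and is a control point of the pathway, and Lss, lanosterol synthase, which closes the 4 rings. Sqle (chr15:59146632-59162747, plus strand, NCBIM37, as are all gene positions below) was at 10.6, 7.46 and 10.7 in L-RalyKO mice 1 to 3 and at 5.39, 15.3 and 5.596 in control mice 1 to 3. The highest and the 2 lowest values of the 6 were all controls, and control 2 was 2.84-fold above control 1. The means were 9.59 ± 1.84 (SD, n = 3) and 8.77 ± 5.67 (SD, n = 3), with a log2 fold change of 0.25 and a 95% interval of -0.50 to 0.99 (limma SE 0.33, adjusted p = 0.711; exact permutation p = 0.8). Without control 2, the Sqle log2 fold change was 0.69 and its limma adjusted p 0.0448, whereas it was 0.013 without control 1 and 0.035 without control 3. On the recovered reads of all 6 mice it was 0.15 with edgeR, 0.13 with DESeq2 and 0.35 with limma voom. Lss (chr10:75994333-76019883, plus strand) was at 26.8, 26.4 and 22.2 in L-RalyKO and at 23.5, 25.6 and 22.2 in control livers. These values were close together and overlapped, with a log2 fold change of 0.08 and an interval of -0.12 to 0.27 (limma SE 0.085, adjusted p = 0.651), and it ran from 0.03 without L-RalyKO 1 to 0.16 without L-RalyKO 3. Over the annotated exons, 3.53% of the Lss bases lie under the antisense transcript 4930483K19Rik.

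The methyl group at C14 is removed by Cyp51, the cytochrome P450 lanosterol 14-alpha demethylase, and the double bond that this leaves is reduced by Tm7sf2, a C14 sterol reductase. Cyp51 (chr5:4081145-4104746, minus strand) was at 81.9, 59.1 and 60.2 in L-RalyKO and at 48.4, 78.7 and 49.7 in control livers. L-RalyKO 1 and control 2 stood above the other four mice, which lay between 48.4 and 60.2. The Cyp51 log2 fold change was 0.20, interval -0.23 to 0.64 (limma SE 0.19, adjusted p = 0.575), and it ran from 0.05 without L-RalyKO 1 to 0.43 without control 2. Tm7sf2 (chr19:6062821-6068373, minus strand) was at 108, 100.1 and 86.5 in L-RalyKO and at 76.1, 95.9 and 71.8 in control livers. L-RalyKO mice 1 and 2 lay above all controls, whereas L-RalyKO 3 lay below control 2. Its means were 98.2 ± 10.9 and 81.3 ± 12.9 (SD, n = 3 each). The Tm7sf2 log2 fold change was 0.28 with an interval of 0.01 to 0.54 (limma SE 0.11, unadjusted p = 0.0409, adjusted p = 0.199; exact permutation p = 0.2). Of the Tm7sf2 exon bases, 15.3% are shared with 1110014N23Rik, a gene annotated on the same strand, so that some reads may have been counted for either gene.

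The 2 methyl groups at C4 are removed by a complex of 3 enzymes: Msmo1, the methylsterol monooxygenase, Nsdhl, a dehydrogenase and decarboxylase, and Hsd17b7, the 3-ketosteroid reductase. Msmo1 (chr8:67196936-67212589, minus strand, annotated there as Sc4mol) was at 76.0, 62.2 and 58.6 in L-RalyKO and at 50.01, 66.0 and 35.5 in control livers. The 3 L-RalyKO mice lay above control mice 1 and 3, and control 2 lay above L-RalyKO mice 2 and 3. Over all 6 mice Msmo1 had the largest difference of the 9, with means of 65.6 ± 9.20 and 50.5 ± 15.2 (SD, n = 3 each), a log2 fold change of 0.41 and an interval of -0.04 to 0.85 (limma SE 0.19, adjusted p = 0.258). Without control 2 Sqle was ahead of it (0.69 against 0.62), and without control 3 Msmo1 was at 0.18, behind Tm7sf2 (0.19) and, in size, Sc5d (-0.25). Nsdhl (chrX:70163896-70203853, plus strand) was at 43.0, 35.97 and 30.9 in L-RalyKO and at 36.2, 43.5 and 24.0 in control livers. The highest and the lowest value were both controls, and the log2 fold change was 0.11, interval -0.34 to 0.56 (limma SE 0.20, adjusted p = 0.798). The Nsdhl direction turned without L-RalyKO 1 (-0.01) and without control 3 (-0.13), and the value was 0.29 without control 2. Hsd17b7 (chr1:171879666-171899372, minus strand) was at 58.6, 48.9 and 49.9 in L-RalyKO and at 46.9, 53.9 and 45.2 in control livers. L-RalyKO 1 was the highest mouse and control 2 came next, with a log2 fold change of 0.11 and an interval of -0.09 to 0.30 (limma SE 0.088, adjusted p = 0.524), and it ran from 0.025 without L-RalyKO 1 to 0.18 without control 2. The 3 enzymes of this complex thus had the same order of controls, with control 2 highest and control 3 lowest, while their differences between groups ran from 0.11 to 0.41.

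The last 2 members act on ring B: Sc5d, the sterol C5-desaturase, and Dhcr7, 7-dehydrocholesterol reductase, which yields cholesterol and whose substrate is also the precursor of vitamin D. Sc5d (chr9:42062260-42072383, minus strand) was at 249, 258 and 232 in L-RalyKO and at 279, 307 and 249 in control livers. Control mice 1 and 2 lay above all L-RalyKO mice, and control 3 lay among them. Its means were 247 ± 13.2 and 279 ± 29.0 (SD, n = 3 each), the log2 fold change was -0.17 and the interval -0.35 to 0.01 (limma SE 0.078, adjusted p = 0.238; exact permutation p = 0.2). The Sc5d log2 fold change was -0.10 without control 2 and -0.25 without control 3. Dhcr7 (chr7:151009050-151034315, plus strand) was at 53.0, 50.5 and 41.5 in L-RalyKO and at 46.4, 53.6 and 38.3 in control livers. The groups overlapped throughout, with a log2 fold change of 0.07 and an interval of -0.22 to 0.36 (limma SE 0.13, adjusted p = 0.788). The Dhcr7 value was 0.003 without L-RalyKO 1 and 0.18 without control 2, and its direction turned without control 3 (-0.052). With 3 mice against 3, an exact permutation test cannot go below p = 0.1, and the 9 genes gave p-values from 0.2 to 1.

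**Figure D3:**
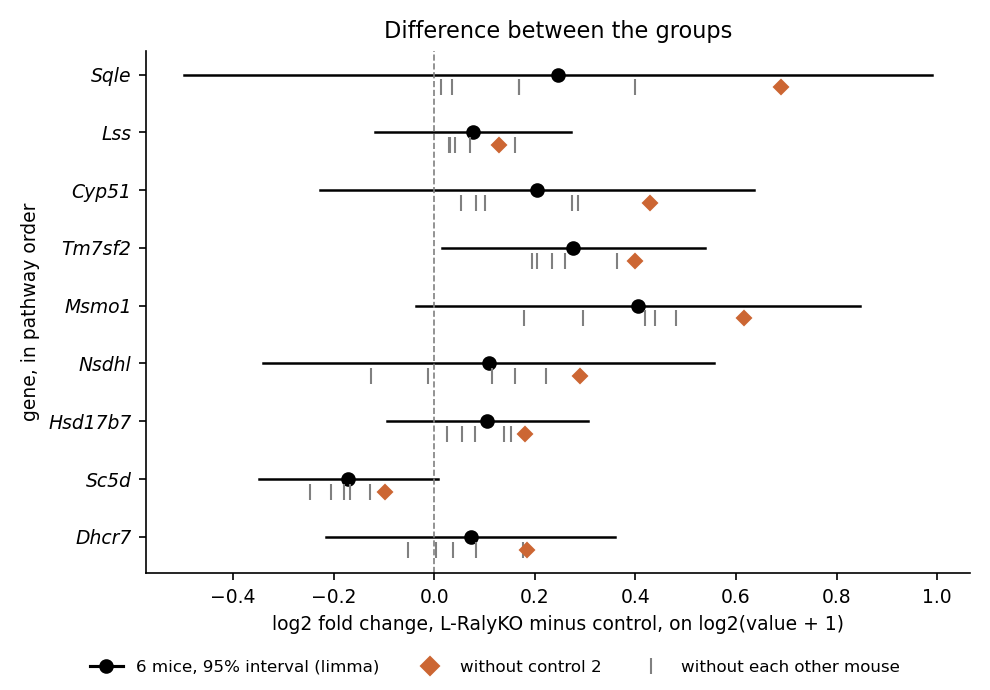
Log2 fold change of each gene, L-RalyKO minus control on log2(value + 1), with its 95% limma interval (circle and line), and the value when a single mouse was left out (diamond for control 2, ticks for the others). Intervals of 8 of 9 genes span 0, and Sqle moves from 0.25 to 0.69 without control 2.

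Levels between genes were compared per kilobase of annotated exon. In control livers Sc5d was highest, at 120 ± 12.5 CPM per kilobase (SD, n = 3), followed by Tm7sf2 at 23.3 ± 3.70 and Cyp51 at 13.7 ± 4.002, and these 3 genes did not overlap each other. Dhcr7 (12.2 per kilobase), Nsdhl (12.1), Hsd17b7 (9.54) and Msmo1 (8.22) followed, and each overlapped the gene before it in the controls. Lss (2.20) and Sqle (1.58) were lowest, clear of Msmo1 but not of each other. The control means thus spanned 75.6-fold from Sc5d to Sqle. With the length of the longest transcript in place of all exons, 3 genes changed rank, Msmo1 moving from rank 7 to rank 3, Cyp51 from 3 to 6 and Hsd17b7 from 6 to 7.

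Within groups the 9 genes were more spread out than most genes. Their median SD within groups was 0.212 on the log2 scale, against 0.0939 over all tested genes, and all 9 lay above that median. Sqle was the most spread (SD 0.575, at the 99.5th percentile of tested genes), and Nsdhl (0.343), Msmo1 (0.339) and Cyp51 (0.331) each lay above the 97th percentile. The Sqle SD was 0.768 in the controls and 0.267 in the L-RalyKO mice. Its control value rested on control 2, at 15.3 CPM against 5.39 and 5.596 in control mice 1 and 3. Sc5d (0.120), Lss (0.124) and Hsd17b7 (0.136) were the steadiest. In the controls alone the median SD of the 9 was 0.238, against 0.0880 for all tested genes, and in the L-RalyKO mice it was 0.183 against 0.0816.

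The spread had the same order of mice in most of the genes. Control 2 was the highest control in 9 of 9 genes, which it was for 31.5% of all tested genes, and control 3 was the lowest in 7 of 9 (33.5% of all tested genes); Sqle and Cyp51 were lowest in control 1. Among the L-RalyKO mice, mouse 1 was highest in 7 of 9 genes (32.7% of all tested genes), Sqle and Sc5d being the exceptions, and mouse 3 was lowest in 6 of 9 (37.9%). Averaged over the 9 genes, the log2 deviation from the control mean was -0.08, 0.33 and -0.26 in control mice 1 to 3 and 0.31, 0.10 and 0.03 in L-RalyKO mice 1 to 3. Control 2 (0.33) thus lay about as far above the control mean as L-RalyKO 1 (0.31), and control 3 (-0.26) lay below it. Set mouse against mouse, the number of the 9 genes higher in the L-RalyKO mouse ran from 0, for L-RalyKO 3 against control 2, to 9, for L-RalyKO 2 against control 3. For L-RalyKO mice 1 to 3 the number was 8, 7 and 5 against control 1, 5, 2 and 0 against control 2, and 8, 9 and 8 against control 3, where 49.1% to 52.6% of all tested genes were higher in the L-RalyKO mouse of each of the 9 pairs.

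**Figure D4:**
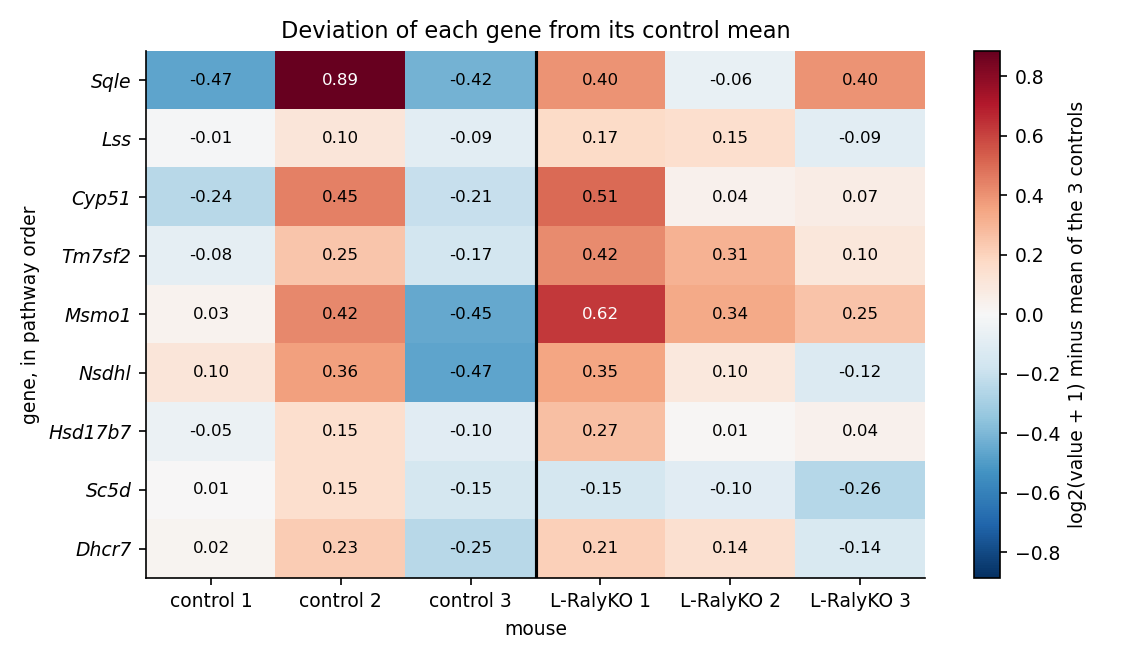
Log2(value + 1) of each gene in each mouse minus the mean of the 3 controls; rows are genes in pathway order, columns are mice, and the printed number is the deviation. Control 2 is above the control mean in all 9 rows and control 3 below it in all 9, and Sc5d is negative in every L-RalyKO mouse.

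Library depth moved with this order in part. Control 2 was the shallowest library (28302983 reads), control 1 had 32500159 and control 3, the lowest control in 7 of the 9 genes, had 37132274. L-RalyKO mice 1 to 3 had 35386280, 34660211 and 38052705 reads. Before scaling, 5 of the 9 genes still had most reads in control 2 among the controls, and Sqle had 437 reads there against 181 in control 1 and 207 in control 3. Summed Kupffer cell markers were 156, 234 and 189 in control mice 1 to 3 and 209, 161 and 197 in L-RalyKO mice 1 to 3, also with control 2 highest. Summed hepatocyte markers, which are mostly Alb, were 80616, 89631 and 87524 in the controls and 90395, 91588 and 91251 in L-RalyKO mice 1 to 3; of the 6 markers, only Alb was highest in control 2 among the controls. Stellate cell markers were lowest in control 2 (258, 234 and 236), and endothelial markers were highest in control 3 (228, 232 and 236). In L-RalyKO mice 1 to 3, stellate markers were 224, 237 and 293 and endothelial markers 251, 198 and 220. Pericentral hepatocyte markers were 11241, 10685 and 10239.5 in the controls and 11985.5, 11482 and 10991 in L-RalyKO mice 1 to 3. Periportal hepatocyte markers were 3372, 3580 and 4107 in the controls and 3956, 4439 and 4005 in L-RalyKO mice 1 to 3. The part of depth and of cell content in the order of mice was not tested.

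After the group means were removed, the 36 pairs that 9 genes form were correlated over the 6 mice, which share their libraries. The Pearson r was positive in 36 of 36 pairs, with a median of 0.84, a range of 0.36 to 0.98 and a median Spearman rho of 0.8, whereas the median over all pairs of tested genes was 0.0024. An r of at least 0.8 was reached by 58.3% of the pairs (fewer without control 2) and by 5.41% of pairs of all tested genes. The closest pair was Msmo1 and Nsdhl, both of the C4-demethylation complex (r = 0.980, rho = 1, exact permutation p = 0.0278 for each, 0.2 after Benjamini-Hochberg adjustment over the 36 pairs; r = 0.952 without the 2 mice farthest from the median of Msmo1). Sqle and Lss, which act in succession, were the least alike (r = 0.364, rho = 0.371, exact permutation p = 0.444 and 0.611, adjusted p = 0.471 and 0.611). Their r was -0.037 without the 2 mice farthest from the median of Sqle. Cyp51 and Hsd17b7 reached an r of 0.957 (rho = 0.6, exact permutation p = 0.0833 and 0.278, adjusted p = 0.2 and 0.4). Their r was 0.966 without control 2 alone. It was -0.288 without both L-RalyKO 1 and control 2, the 2 mice farthest from the median of Cyp51. The smallest p that permuting mice within groups can give is 0.0278; 5 of 36 pairs had an unadjusted p under 0.05, and the smallest adjusted value was 0.2. The 2 mice farthest from the median of the gene earlier in pathway order were also left out of each pair. Then 28 of 36 pairs were still positive, with a median r of 0.60 and a lowest r of -0.29. For these values the group means of all 6 mice were kept, so a difference between groups can enter them. The r without control 2 took the group means anew.

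The genes differed in how closely they followed the rest. The median r with the other 8 genes was highest for Dhcr7 (0.930) and Tm7sf2 (0.886), and it was 0.873 for Msmo1, 0.859 for Sc5d, 0.849 for Nsdhl, 0.790 for Hsd17b7, 0.789 for Cyp51, 0.785 for Lss and 0.655 for Sqle. Without control 2 the median over the 36 pairs was 0.67, the median r of Sqle with the others was -0.11, that of Sc5d 0.716 and that of Dhcr7 0.890. Sqle then had a negative r with Lss, Tm7sf2, Nsdhl, Sc5d and Dhcr7. Of the Sc5d pairs, those with Sqle (r = -0.586), Cyp51 (0.046) and Hsd17b7 (0.184) were then the lowest.

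**Figure D5:**
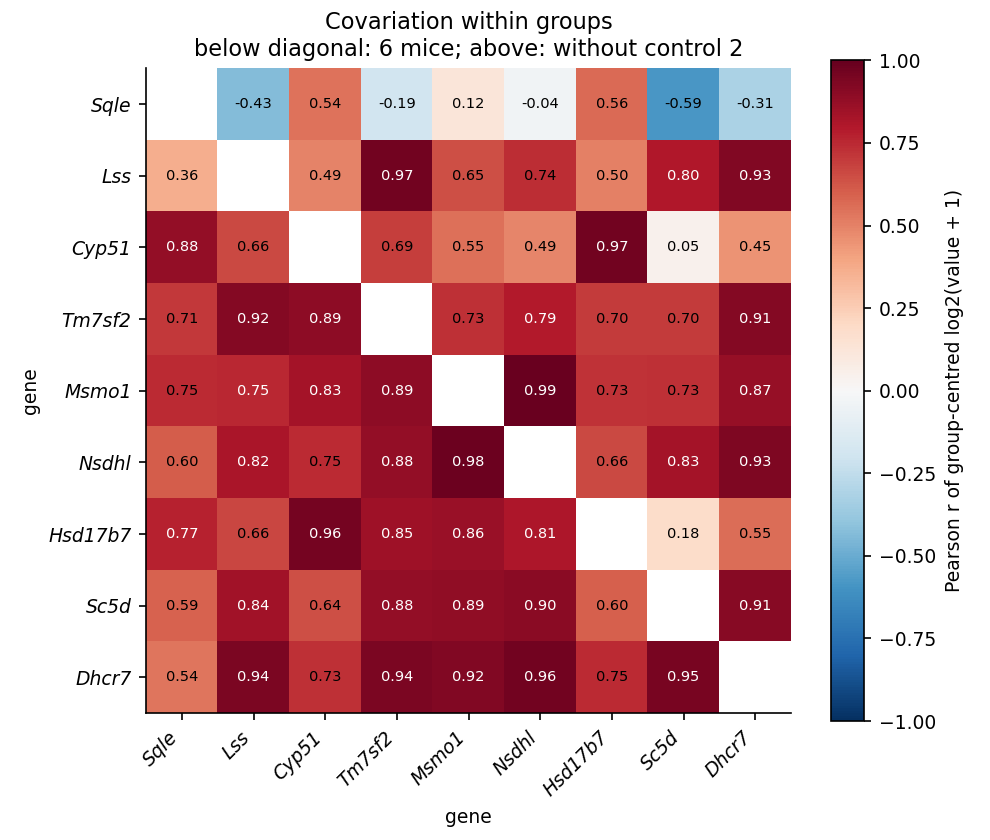
Pearson r of group-centred log2(value + 1) for each pair of the 9 genes, over 6 mice below the diagonal and without control 2 above it; colour runs from -1 to 1. All 36 values below the diagonal are positive, and the row of Sqle above it holds both signs.

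The genes nearest to the shared pattern were sought among the 7415 genes that averaged 10 or more, by the r over 6 mice between a gene and the mean of the 9 standardised genes, both with their group means removed, given as a description because so many genes are ranked over so few mice. The 5 nearest were Rps10 (r = 0.994), Stk35 (0.992), Arhgap23 (0.988), Cops2 (0.988) and Pkp2 (0.987), none a sterol enzyme. Genes of the mevalonate pathway to squalene stood near the top, with 6 of the 7 ranked ones in the highest 10% of the order, among them Pmvk at rank 9, Hmgcs1 at rank 35, Idi1 at rank 42 and Fdps at rank 71. Insig1, which holds SREBP in the endoplasmic reticulum, was at rank 74, Srebf2, the gene of SREBP2, at rank 748 and Srebf1 at rank 3531.

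Other genes of the late pathway and of its supply were counted by list, to be read against the 6.55% of all tested genes that passed the adjusted test and the 22.7% that passed the unadjusted one. Of the 3 other post-squalene enzymes none passed the adjusted test (limma), and 2 passed the unadjusted test, both in the higher direction. Of 9 genes of the mevalonate pathway to squalene, none passed the adjusted test, and 1 in each direction passed the unadjusted one. None of 8 other SREBP2 target genes passed the adjusted test.

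Of 8 electron donors and partners of these enzymes, 1 passed the adjusted test, Por, the cytochrome P450 reductase that passes electrons to Sqle and Cyp51. Por rose in L-RalyKO livers: it was at 948, 966 and 874 there and at 546, 631 and 672 in control livers. The groups were clear of each other, with a log2 fold change of 0.60 (limma SE 0.081, adjusted p = 0.00531). Of the 11 genes of SREBP regulation, 1 was higher and 2 were lower at an adjusted p under 0.05, again beside 6.55% of all tested genes. Insig1 was at 205, 180.4 and 170.3 in L-RalyKO against 113, 149 and 115 in control livers (log2 fold change 0.56, limma adjusted p = 0.0211), while Srebf1 fell by 0.65 and Insig2 by 0.58 on the log2 scale (limma adjusted p = 0.0173 and 0.0190). Srebf2 was at 38.4, 36.8 and 39.7 in L-RalyKO and at 35.8, 39.9 and 34.2 in control livers, with overlapping groups (log2 fold change 0.06, limma adjusted p = 0.622).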

How the data were processed

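Livers of 6 mice were profiled by RNA-seq with a stranded kit; the 13 ATAC-seq and ChIP-seq samples of the series were not used here. Per the study's methods and processing notes the authors aligned reads to mm9 with TopHat v2.0.2 and used Cufflinks v2.0.2; how the deposited table was made is not given in the sources used here. The deposited values are a normalised signal: each is a whole number of reads divided by the library size times a composition factor equal to that of edgeR's TMM method, so that 100% of the values in every column gave whole reads (tolerance 0.01). Columns named by virus and number were matched to the replicate titles.

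Groups were compared with limma 3.58.1 (R 4.3.3, intensity trend) on log2(value + 1) over the 11580 genes averaging 1 or more, and p-values were adjusted by Benjamini-Hochberg. The added 1 draws log2 fold changes of low genes towards 0: that of Sqle was 0.25, and 0.29 with 0.1 added. With edgeR (0.15) and DESeq2 (0.13) it was nevertheless smaller. The design assumed deposited counts with CPM, and the recovered reads went to edgeR 4.0.16 and DESeq2 1.42.0 as alternatives; edgeR called 783 genes and limma 758. BLAST 2.17.0 of the 9 transcripts against NCBIM37 found no other copy of at least 95% identity over 100 bases. Scripts were tested on simulated data. Named genes were the 9 members, Raly, Srebf2, the genes of each list past the adjusted threshold or else the one with the smallest p and the one with the highest mean, and the 5 nearest in pattern; some genes so named are not reported here. The rule for the members uses symbols only, but the members and lists were proposed with earlier results of these data known.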

Additional observations from a re-analysis of the deposited data

How the results depend on the processing

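The log2 fold changes of the 9 genes were recomputed under 16 alternatives, and 7 of the 9 kept their direction in all of them. Leaving out a mouse reversed the others: Nsdhl was at -0.01 without L-RalyKO 1 and at -0.13 without control 3, and Dhcr7 was at -0.052 without control 3 and at 0.18 without control 2. At an unadjusted p under 0.05, 2 members passed with DESeq2 (Tm7sf2 and Sc5d), 0 with limma without an intensity trend, 0 when all genes with at least 1 read were tested, and Sc5d in place of Tm7sf2 with edgeR and with total-count scaling. Without a replicate in turn, members passing ran from 0 to 4 unadjusted and from 0 to 1 adjusted (limma). The highest counts were both without control 2 (Sqle, Cyp51, Tm7sf2 and Msmo1, or Sqle after adjustment). The number of members with a positive log2 fold change ran from 6 to 8. The median log2 fold change of the members ran from 0.03 to 0.29, and their median r from 0.67 to 0.89. Genes called over the whole table ran from 332 to 813 without a replicate (main count 758), were 484 with all genes of at least 1 read, and 1084 with DESeq2. Whether replicate numbers pair the mice is not settled by these data. Deviations of same-numbered mice correlated at 0.066, -0.024 and 0.020, yet 2 of 3 L-RalyKO mice were closest to their own number. With the number as a replicate block, 3 members passed unadjusted (Tm7sf2, Msmo1 and Sc5d), 0 adjusted, and 704 genes were called. By length of the longest transcript, 3 members changed rank. Sqle, the member with the fewest reads, has a counting error of 7.43% at its lowest count; its CV was 64.7% in the controls and 19.2% in the L-RalyKO mice, and 3 mice per group limit all calls.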

Other observations

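The gene whose pattern ran most nearly opposite to the 9 genes was Xdh, xanthine dehydrogenase (r = -0.996 over 6 mice after the group means were removed, among 7415 genes), followed by Il1r1, the type I interleukin-1 receptor (r = -0.991); both were chosen after their values were seen. Il1r1 was at 80.9, 99.9 and 111 in L-RalyKO mice 1 to 3 and at 31.1, 23.3 and 36.03 in control mice 1 to 3, so that among the controls it was lowest in control 2, where the 9 genes were highest. It rose between the groups by a log2 fold change of 1.67 (limma SE 0.158, adjusted p = 0.00123).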
